A study of Rattus norvegicus with 6 samples.

Results

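Calcium and magnesium handling genes of the distal nephron were compared between Dahl salt-sensitive (S) and congenic rat kidneys on the same diet. The set was fixed by gene symbol and held 9 genes, Trpv5, Calb1, S100g, Pvalb, Slc8a1, Atp2b1, Casr, Trpm6 and Egf. On the Affymetrix Rat 230 2.0 array, 12 of 31042 probe sets (groups of short oligonucleotides read together as 1 signal) carried one of these symbols. They covered 8 of the 9 genes, and Trpm6 had no probe set under its symbol. Of the 12 probe sets, 9, from 7 genes, lay above the filter on dim signals and were tested among 18625 probe sets. The sole probe set of Pvalb and a second one each of Trpv5 and Slc8a1 lay below it.

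The S group held 3 pools of kidney RNA from Dahl salt-sensitive rats, an inbred strain that develops hypertension on dietary salt. The congenic group held 3 pools from congenic rats, which have the Dahl S background and, by the study's title, a segment under 81.8 kb that bears on blood pressure. Per the design text, all rats were male, were born on one day, were weaned at 30 days, ate a diet with 2% salt and were killed at 53 days. Each strain gave 6 rats, and RNA of 2 rats made 1 pool, so single rats were not seen. The groups hold no low-salt diet and no salt-resistant strain. All 8 measured members lie outside chromosome 9, the chromosome given in the congenic strain's name (0 of 12 probe sets there).

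In the distal convoluted and connecting tubules, calcium crosses the cell from urine to blood in 3 kinds of step. It enters through the apical channel Trpv5, is carried by the binding proteins calbindin-D28k (Calb1), calbindin-D9k (S100g) and, in some cells, parvalbumin (Pvalb), and leaves through the sodium-calcium exchanger Slc8a1 and the calcium pump Atp2b1. Magnesium enters through Trpm6, a channel stimulated by epidermal growth factor, whose precursor (Egf) is made in abundance by distal tubule cells. The calcium-sensing receptor Casr, strongest in the thick ascending limb, restrains the reabsorption of both ions when blood calcium is high.

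No member differed between the strains at an adjusted p under 0.05 (0 of 9 probe sets, where limma called 0% of all tested probe sets). Without adjustment, 0 of 9 had a p under 0.05, beside 6.61% of all tested probe sets, and the signals of the strains overlapped for all 9, where 12.5% of tested probe sets had no overlap. The log2 fold change, congenic over S, was negative for 7 of the 9 probe sets and positive for 2, with a median of -0.084. Over all tested probe sets 51.3% were negative and the median was -0.0036. The lowest member value was that of Trpv5 at -0.30, and the highest that of Egf at 0.024. The rat pools and the arrays both contribute to the spread, and in whole kidney RNA fewer cells of a type and less RNA per cell cannot be told apart.

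**Figure D1:**
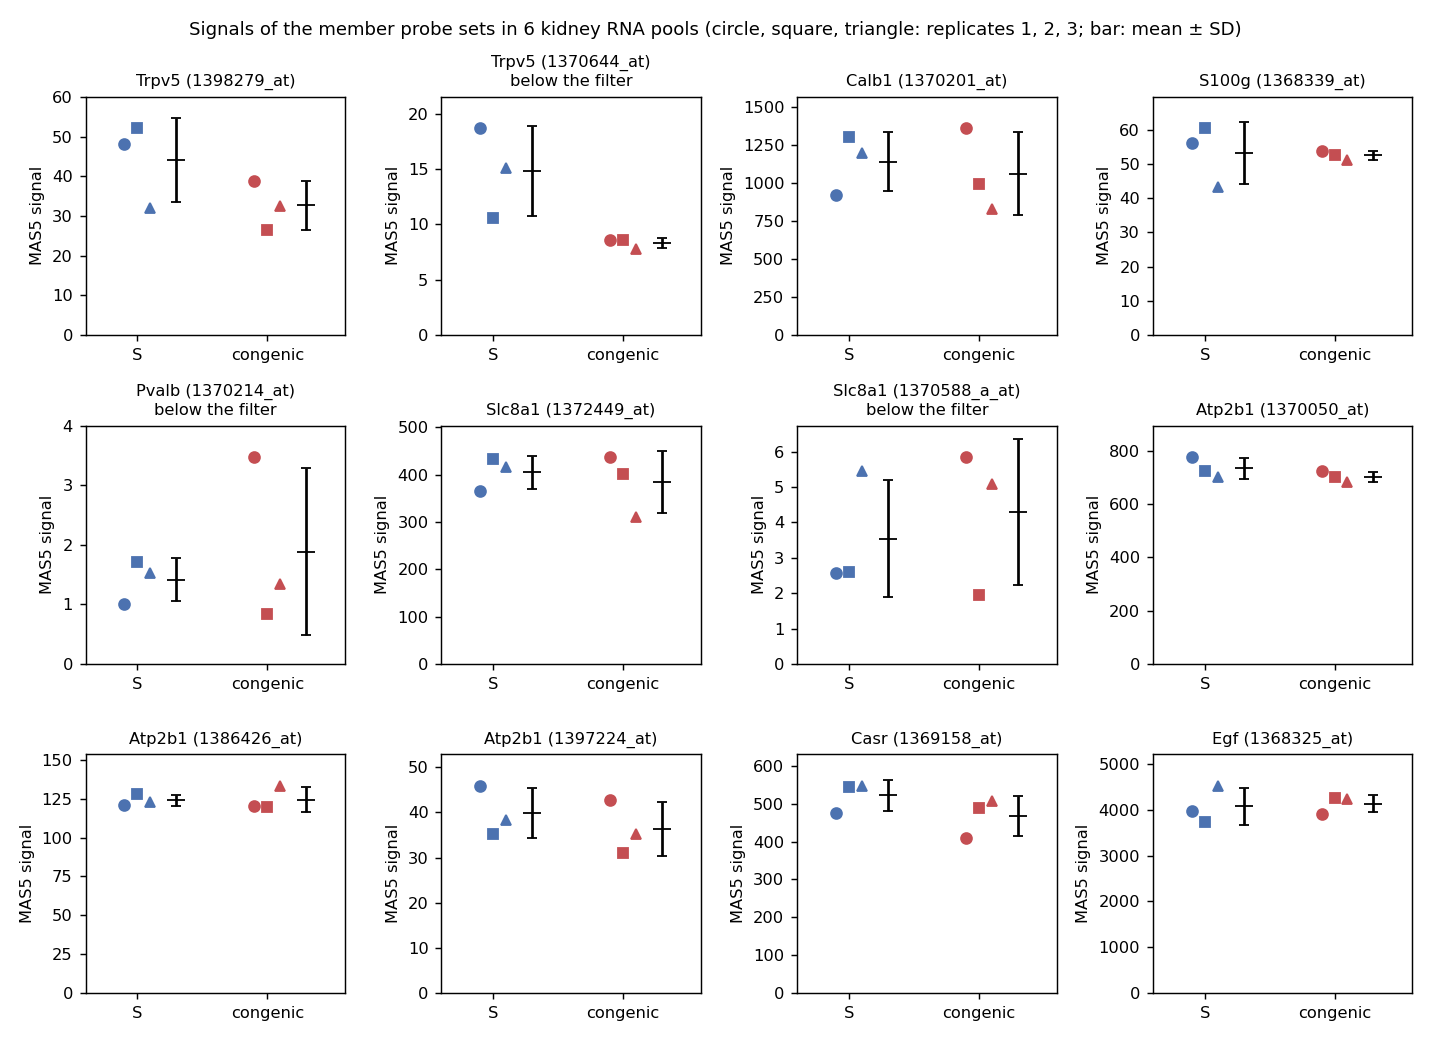
Signal (MAS5, linear scale, vertical axis from 0) of the 12 member probe sets in the 3 S and the 3 congenic pools; symbols mark replicates 1 to 3 and the bar gives mean ± SD. The strains overlap in all panels but that of the dim Trpv5 probe set 1370644_at, where the S pools lie at 10.6 to 18.7 and the congenic pools at 7.75 to 8.60.

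**Figure D2:**
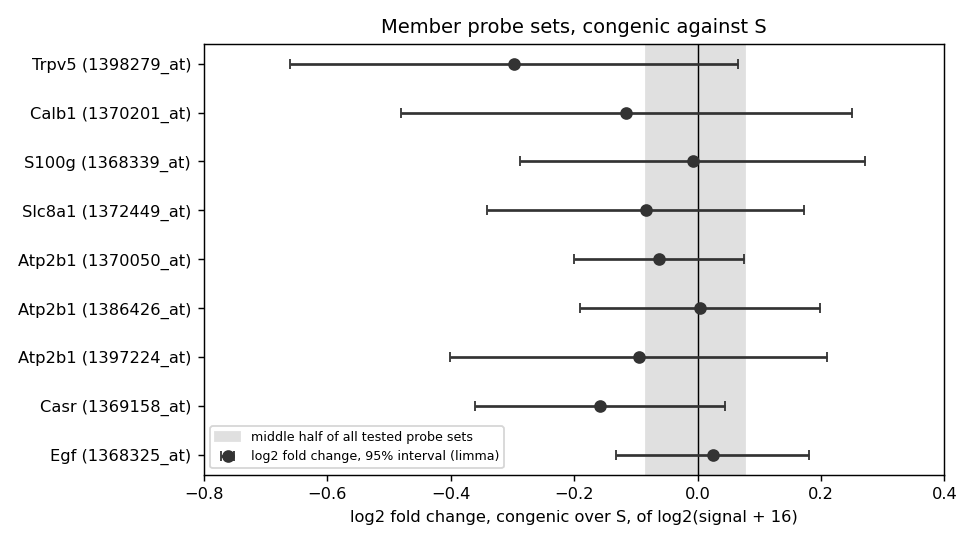
Log2 fold change, congenic over S, of log2(signal + 16) for the 9 tested member probe sets, with 95% intervals from limma; the grey band spans the middle 50% of all tested probe sets, from -0.084 to 0.076. Every interval includes 0, and those of Calb1, from -0.48 to 0.25, and Trpv5, from -0.66 to 0.066, are the widest.

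Whole-series checks bear on how these values read. The 6 arrays had been scaled alike (median signals 42.9 to 46.0), and the ratio of 3' to 5' actin signal, which increases as RNA degrades, was 6.54 to 9.42 on the S arrays, highest on S replicate 1, and 6.15 to 7.17 on the congenic arrays. Congenic replicate 1 carried liver transcripts, with the 6 liver markers (Alb, Serpina1, Cps1, Ttr, Fgb and Apoh) summing to 9680 against 188 to 252 on the other 5 arrays. Congenic replicate 3 carried adrenal transcripts, with the 5 adrenal markers (Cyp11a1, Hsd3b1, Star, Cyp21a1 and Cyp11b1) summing to 5506 against 128 to 142. All listed markers of the proximal tubule (5 of 5) and thick ascending limb (4 of 4) lay above the filter. So did those of the distal convoluted tubule (4 of 4) and of the connecting tubule and collecting duct (6 of 6). The 6 liver markers did too, so lying above the filter does not identify the tissue. The strains overlapped in the summed signals of all marker lists except connecting tubule and collecting duct, and urothelium. The overlapping lists covered the other tubule segments, intercalated cells, glomerulus, skeletal and smooth muscle, parathyroid, liver, adrenal gland and fat. The sum of the 6 connecting tubule and collecting duct markers was 4346 to 4906 in S and 5146 to 5866 in congenic pools, without overlap. Among all tested probe sets, 12.5% had no overlap. This sum rests mostly on the bright water channel genes Aqp2 and Aqp3, with log2 fold changes of 0.23 and 0.43. Their limma unadjusted p was 0.00732 and 0.00319, neither past the adjusted threshold, where 6.61% of tested probe sets had a p under 0.05. The other markers of the list were at 0.17 (Scnn1g), 0.0043 (Avpr2), -0.0076 (Klk1) and -0.045 (Scnn1b). The sum of the 5 urothelium markers was 494 to 542 in S and 401 to 470 in congenic pools, also without overlap. Its brightest marker, Krt19, had a log2 fold change of -0.16, with Upk1a and Upk1b at -0.29 and Upk3a at -0.35. Upk2 lay below the filter, and its signals overlapped between the strains. The part of either sum's cell types in the member values was not tested.

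The windows around the RefSeq transcript starts of Trpv5 and Casr are shown because these 2 genes had the smallest unadjusted p among the members (0.0985 and 0.114). Each runs from 250 bases before to 50 bases after the start, on assembly GRCr8, in the direction of the gene. Capitals mark a match to AGGTCA, the half-site bound by nuclear receptors such as that of vitamin D.
Trpv5, chr4:71529333-71529632, minus strand: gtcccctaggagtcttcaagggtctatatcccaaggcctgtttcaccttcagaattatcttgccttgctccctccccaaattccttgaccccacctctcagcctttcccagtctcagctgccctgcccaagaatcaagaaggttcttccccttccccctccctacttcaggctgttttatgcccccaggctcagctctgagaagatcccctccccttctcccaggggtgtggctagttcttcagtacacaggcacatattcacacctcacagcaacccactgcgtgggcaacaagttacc
Casr, chr11:77740364-77740663, plus strand: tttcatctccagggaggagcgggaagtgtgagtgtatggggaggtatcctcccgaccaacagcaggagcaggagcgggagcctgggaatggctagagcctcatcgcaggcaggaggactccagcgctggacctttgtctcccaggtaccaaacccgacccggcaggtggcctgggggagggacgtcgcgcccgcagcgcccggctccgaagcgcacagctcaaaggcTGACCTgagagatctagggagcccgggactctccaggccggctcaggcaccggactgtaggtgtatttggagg
Beside AGGTCA, the search on both strands covered GGTTCA, another nuclear receptor half-site, the TATA box as TATAAA, and the GC box as GGGCGG. The Casr window held AGGTCA once, on the opposite strand and 23 bases before the start, and none of the other motifs. The Trpv5 window held 0 matches to any of the 4. Of all 33469 windows of 300 bases, 16.2% held the first half-site, 11.7% the second, 14.2% the TATA box and 33.1% the GC box. Both starts lie inside the longer RefSeq gene model, by 1752 bases for Trpv5 and 2216 for Casr, so other starts of these genes are not covered. Windows were listed for 7 of the 9 members, without Calb1 and S100g.

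Trpv5, the channel through which calcium enters distal cells, had the largest difference of any tested member. Its probe set 1398279_at gave signals of 48.1, 52.2 and 32.0 in S replicates 1 to 3 and 38.8, 26.5 and 32.6 in congenic replicates 1 to 3. The first pair of S pools lay above every congenic pool, and S replicate 3 lay among the congenic values. The mean signal was 44.1 ± 10.7 (SD, n = 3) for S and 32.6 ± 6.16 (SD, n = 3) for the congenic strain. The log2 fold change was -0.30 (SE 0.16, 95% interval -0.66 to 0.066, limma adjusted p = 0.782), on a scale of log2(signal + 16) that understates changes of dim probe sets. With a pseudocount of 1 it was -0.41, and with 64 it was -0.16.

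The other Trpv5 probe set, 1370644_at, was dimmer, at the 25.6th percentile of mean signal. It measured 18.7, 10.6 and 15.1 in S replicates 1 to 3 and 8.60, 8.58 and 7.75 in congenic replicates 1 to 3. All 3 congenic pools lay below all 3 S pools, as did 6.09% of the 31042 probe sets when no filter was applied. In the fit without a filter its log2 fold change was -0.33 (SE 0.14, 95% interval -0.64 to -0.021). The limma unadjusted p was 0.0391 and the adjusted p 0.842, where 5.92% of probe sets had an unadjusted p under 0.05. Both probe sets thus had lower congenic means, at 74.0% and 56.2% of the S mean, but S replicate 3 was the lowest S pool in one and S replicate 2 in the other. Without S replicate 3, the log2 fold change of 1398279_at was -0.45 (limma unadjusted p = 0.0166, adjusted p = 0.455), and without S replicate 2 it was -0.20.

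Calb1, the main cytosolic carrier of calcium in these cells, had bright signals that varied more among pools than between strains. Its signals were 924, 1302 and 1197 in S replicates 1 to 3 and 1365, 994 and 832 in congenic replicates 1 to 3. Both the highest and the lowest pool were congenic, and they were the arrays with liver and adrenal transcripts. The mean was 1141 ± 195 (SD, n = 3) for S and 1064 ± 273 (SD, n = 3) for the congenic strain, which gave -0.12 as log2 fold change (SE 0.16, 95% interval -0.48 to 0.25, limma adjusted p = 0.910). Leaving out congenic replicate 1 gave -0.31 (limma unadjusted p = 0.0434, adjusted p = 0.775), leaving out congenic replicate 3 gave 0.044, and leaving out both gave -0.18. The part of the liver and adrenal transcripts in this spread was not tested.

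S100g, the small calbindin, measured 56.1, 60.6 and 43.1 in S replicates 1 to 3 and 53.6, 52.7 and 51.1 in congenic replicates 1 to 3. The congenic values lay within the range of the S values. Its log2 fold change was -0.0076 (SE 0.13), with a 95% interval of -0.29 to 0.27. Pvalb, a calcium buffer of the early distal convoluted tubule and of fast skeletal muscle, had signals of 0.842 to 3.48 over the 6 arrays, at the 2.94th percentile, and was not tested. At such signals a level of the transcript cannot be told from background, as no detection calls were used here. The 4 measured skeletal muscle markers (Ckm, Acta1, Myh4 and Tnnt3) also lay below the filter, with sums of 19.4 to 33.8 in S and 24.2 to 36.9 in congenic pools.

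Of the exit route, the exchanger gene Slc8a1 had one bright and one dim probe set. The bright one, 1372449_at, gave 366, 433 and 416 in S replicates 1 to 3 and 438, 403 and 311 in congenic replicates 1 to 3. As for Calb1, the highest and the lowest values were both congenic. The log2 fold change was -0.084 (SE 0.12, 95% interval -0.34 to 0.17, limma adjusted p = 0.906), and 0.054 without congenic replicate 3. The dim one, 1370588_a_at, lay at 1.95 to 5.86 on the 6 arrays, at the 9.79th percentile, and was not tested.

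Atp2b1, the plasma membrane calcium pump expressed in most cells, had 3 tested probe sets, and the coefficient of variation was lowest among the members for the brighter 2 of them. Its brightest probe set, 1370050_at, measured 778, 723 and 701 in S replicates 1 to 3 and 723, 701 and 683 in congenic replicates 1 to 3. The highest value came from S replicate 1, whose actin ratio was also the highest, and the remaining S pools lay within or at the edge of the congenic range. The coefficient of variation over the 6 arrays was 4.61%, and the log2 fold change was -0.062 (SE 0.062, 95% interval -0.20 to 0.076), or -0.020 without S replicate 1. The second probe set, 1386426_at, ranged from 119.5 to 133.6 (coefficient of variation 4.43%), with a log2 fold change of 0.0034 (SE 0.088). The dimmest, 1397224_at, ranged from 30.9 to 45.9 (coefficient of variation 14.4%), with a log2 fold change of -0.096 (SE 0.14), which was -0.018 without S replicate 1 and -0.18 without congenic replicate 1. The 3 probe sets did not share one sign, and each interval included 0.

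Casr, the calcium-sensing receptor, had the second smallest p of the members. It measured 475, 545 and 548 in S replicates 1 to 3 and 408, 489 and 507 in congenic replicates 1 to 3. Congenic replicate 1 was the lowest of the 6 arrays, and S replicate 1 lay below the other congenic pools. The mean was 523 ± 41.1 (SD, n = 3) for S and 468 ± 52.6 (SD, n = 3) for the congenic strain, with a log2 fold change at -0.16 (SE 0.092, 95% interval -0.36 to 0.045, limma adjusted p = 0.782). On leaving out congenic replicate 1, which carried the liver transcripts, it was -0.066, and without S replicate 1 it was -0.22 (limma unadjusted p = 0.0412, adjusted p = 0.921). Pth, the hormone of the parathyroid gland, which is also rich in Casr, lay at 1.05 to 9.30 on all arrays, below the filter. The 4 fat markers (Adipoq, Cidec, Plin1 and Lep, the last below the filter) summed to 801 to 931 in S pools and to 587, 826 and 837 in congenic replicates 1 to 3. Their sum was thus also lowest on congenic replicate 1. Among 10641 genes, Adipoq was the third most similar to Casr over the arrays (r = 0.990), after Nono (0.999) and Upf3b (0.991). With so many genes and 6 arrays, that rank is a description only. The part of fat or liver RNA in the Casr value was not tested.

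Egf was the brightest member, at the 99.5th percentile of all probe sets. Its signals were 3964, 3737 and 4530 in S replicates 1 to 3 and 3913, 4261 and 4234 in congenic replicates 1 to 3. The congenic values lay within the S range. The mean was 4077 ± 409 (SD, n = 3) for S and 4136 ± 194 (SD, n = 3) for the congenic strain, or 0.024 as log2 fold change (SE 0.070). The 95% interval of -0.13 to 0.18 corresponds to a change of -8.72% to 13.3%, the range of strain differences that the data leave for this gene. For Trpv5 (1398279_at) the interval was wider, at -36.7% to 4.67%. For this dim probe set, that interval describes signal plus the pseudocount and understates the range left for the signal itself. The fitted Trpv5 change on that scale was -18.6%, while the congenic mean signal was 74.0% of the S mean.

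Across the 6 arrays, Calb1 and Slc8a1 moved together. The arrays fell in the same order for both genes, with congenic replicate 1 highest, then S replicates 2 and 3, congenic replicate 2, S replicate 1 and congenic replicate 3. Pearson's r of log2(signal + 16) was 0.92 (exact permutation p = 0.00139, the smallest that 6 arrays can give) and Spearman's rho was 1 (exact permutation p = 0.00278, likewise the smallest). Over the 21 pairs of the 7 tested genes, the Benjamini-Hochberg adjusted values were 0.0292 and 0.0583, so that the rank correlation missed 0.05. Without the 2 arrays farthest from the median of Calb1, congenic replicates 1 and 3, r was 0.93 over 4 arrays, and deviations from the strain means gave 0.92. None of the other 20 pairs passed after adjustment, and the next was Egf with S100g (r = -0.93, exact permutation p = 0.00694, adjusted 0.0729). Trpv5, which belongs to the same transport route, had an r of 0.31 with Calb1 (exact permutation p = 0.526, adjusted 0.977).

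The same order of arrays appeared in part in 2 other distal genes, singled out after their values were seen. Slc12a3, the thiazide-sensitive sodium chloride cotransporter that marks the distal convoluted tubule, measured 323, 426 and 411 in S replicates 1 to 3 and 415, 382 and 302 in congenic replicates 1 to 3. Klk1, tissue kallikrein of the connecting tubule, measured 252, 409 and 418 in S replicates 1 to 3 and 495, 341 and 251 in congenic replicates 1 to 3. For both genes, S replicate 1 and congenic replicate 3 were the lowest pools. Slc12a3 correlated with Calb1 at r = 0.94 (exact permutation p = 0.00417, adjusted 0.0278, and rho = 0.94, p = 0.0167, adjusted 0.0833), and r was 0.92 without congenic replicates 1 and 3. With Slc8a1 its r was 0.96 (exact permutation p = 0.00278, adjusted 0.0278). Klk1 correlated with Calb1 at r = 0.96 (exact permutation p = 0.00972, adjusted 0.0486) and with Slc8a1 at r = 0.89 (exact permutation p = 0.00417, adjusted 0.0278). These were 4 of 20 relations of Calb1 and Slc8a1 with the 10 distal convoluted and connecting tubule genes, and the other 16 did not pass, Tfap2b (r = 0.067 with Calb1) and Scnn1g (r = 0.043) among them. After adjustment, 0 of the 20 rank correlations passed 0.05. Because Calb1 and Slc8a1 had the same order of arrays, each distal gene had the same rho with both. The 4 relations thus stand for 2 genes, Slc12a3 and Klk1. They also come from the arrays on which Calb1 and Slc8a1 moved together, so their adjusted p-values are not separate support. The pattern was not limited to these genes. Slc26a4, the pendrin gene of intercalated cells and outside the 20 relations, measured 238, 316 and 344 in S replicates 1 to 3 and 394, 290 and 256 in congenic replicates 1 to 3, with the same 2 lowest pools. Its r over the 6 arrays was 0.90 with Calb1 and 0.78 with Slc8a1, given as a description with no test. The other intercalated cell markers had lower r with Calb1, at 0.093 (Atp6v1b1), -0.058 (Slc4a1) and 0.48 (Foxi1). With Slc8a1 their r was -0.095, 0.0073 and 0.46. For Calb1, Slc8a1, Slc12a3, Klk1 and Slc26a4, the 2 lowest arrays were that with the highest actin ratio (9.42) and that with adrenal transcripts. S replicate 2 had the next highest actin ratio (8.13) and lay second highest for Calb1 and Slc8a1. The part of RNA quality or of adrenal transcripts in the shared order was not tested.

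**Figure D3:**
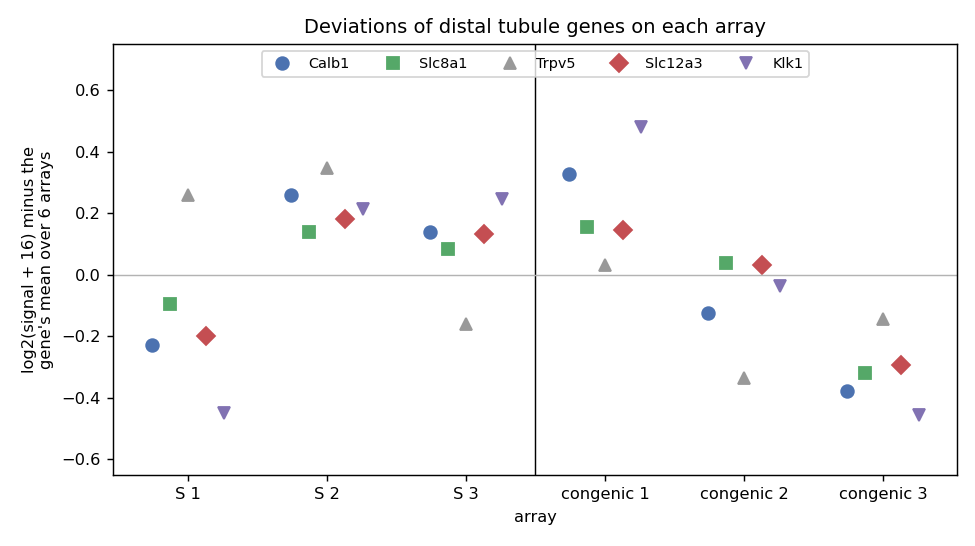
Deviation of log2(signal + 16) from the gene's mean over 6 arrays (vertical axis) for Calb1, Slc8a1, Trpv5 (1398279_at), Slc12a3 and Klk1 on each array (horizontal axis; S left of the line, congenic right). Calb1, Slc8a1, Slc12a3 and Klk1 lie below their means on S replicate 1 and congenic replicate 3 and above them on S replicates 2 and 3 and congenic replicate 1, whereas Trpv5 takes another order.

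For each tested member, the gene with the most similar pattern over the 6 arrays was sought among 10641 other genes, as a description. It was Atp5po for Trpv5 (r = 0.989), Rfng for Calb1 (0.996), Axl for S100g (0.986) and Mafk for Slc8a1 (0.996). For Atp2b1 it was Tubb2a (0.9997), for Casr Nono (0.999) and for Egf Sema5a (0.995). With 6 arrays and that many genes, every member found a partner with an r of at least 0.986.

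Among other genes of calcium and magnesium handling, none passed the adjusted threshold. The list held 54 symbols in 7 groups by role, of which 47 had a probe set and 37 were tested, each by its brightest probe set. Limma called 0 of the 37 (smallest adjusted p = 0.736). Unadjusted, 3 of 37 (8.11%) had a p under 0.05, all lower in congenic pools, where 6.61% of all tested probe sets passed in either direction and 3.52% downward. Of the 37, 19 had a positive and 18 a negative log2 fold change, with a median of 0.0084, and 3 (8.11%) had no overlap between the strains, where all tested probe sets had 12.5%.

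The 3 genes came from separate groups. Tfap2b, a transcription factor of the distal convoluted tubule, measured 714, 776 and 713 in S replicates 1 to 3 and 572, 701 and 610 in congenic replicates 1 to 3. The strains did not overlap, and the log2 fold change was -0.22 (SE 0.080, unadjusted p = 0.0175). Its 2 dimmer probe sets gave -0.285 (unadjusted p = 0.0132) and -0.287 (unadjusted p = 0.00245), and no Tfap2b probe set passed the adjusted threshold. With 1 array left out, the value of the brightest probe set ranged from -0.31 (without congenic replicate 2) to -0.16 (without congenic replicate 1). It was -0.064 without congenic replicates 1 and 3. Bsnd, the barttin subunit of the basolateral chloride channels, measured 503, 552 and 532 in S replicates 1 to 3 and 398, 509 and 464 in congenic replicates 1 to 3, a log2 fold change of -0.21 (SE 0.088, unadjusted p = 0.0377). As with Casr and Tfap2b, congenic replicate 1, the array with liver transcripts, was the lowest of the 6. Without that array the Bsnd value was -0.12, and without congenic replicate 2 the value was -0.29. Cnnm3, a member of the cyclin M family linked to magnesium transport, measured 388, 366 and 383 in S replicates 1 to 3 and 345, 343 and 333 in congenic replicates 1 to 3. Its strains did not overlap, and its log2 fold change was -0.15 (SE 0.065, unadjusted p = 0.0456), with -0.085 in a second probe set.

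Among apical entry and its regulators, 3 of 4 tested genes had a positive log2 fold change. Sgk1, the aldosterone-induced kinase that raises channel numbers at the membrane, was at 0.18 (SE 0.13), and S100a10, a partner of Trpv5 at the membrane, at 0.061. Trpv6, the closest relative of Trpv5, was at 0.053 (SE 0.19). Kl, the gene of klotho, lay below the filter. Of the calcium binding proteins only the calmodulin gene Calm2 was tested, at 0.056. Of the calcium exit genes, the pumps Atp2b2 and Atp2b3 were dim, with log2 fold changes of -0.20 and -0.17, and Atp2b4, Slc8a2 and Slc8a3 lay below the filter.

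Among hormone receptors and vitamin D enzymes, Pth1r, the parathyroid hormone receptor, averaged 1263 ± 29.2 (SD, n = 3) for S and 1196 ± 28.0 (SD, n = 3) for the congenic strain. Its strains did not overlap, and the log2 fold change was -0.078 (SE 0.052, limma adjusted p = 0.806), with 0.062 in a second, dim probe set. Calcr, the calcitonin receptor, was at 0.15, and the Egf receptor Egfr at 0.046, with -0.051 in a second tested probe set. Vdr and Cyp27b1, the vitamin D receptor and the enzyme that activates the vitamin, lay below the filter. Of the magnesium group, 6 of 10 were negative and 4 positive. Fxyd2, the sodium pump subunit whose mutation wastes magnesium, was at 0.062, and the magnesium carrier Slc41a1 at -0.084. In the thick ascending limb group, 5 of 7 were positive, among them the apical potassium channel Kcnj1 at 0.26 (SE 0.13) and the cotransporter Slc12a1 at 0.13. The claudins that pass calcium and magnesium between cells differed in sign, with Cldn16 at -0.18 and Cldn19 at 0.17. In the distal group, 6 of 10 were negative. The sodium channel subunit Scnn1g was at 0.17, with 0.075 in a second tested probe set. The kinase Stk39 was at -0.069, with 0.11 in a second tested probe set.

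**Figure D4:**
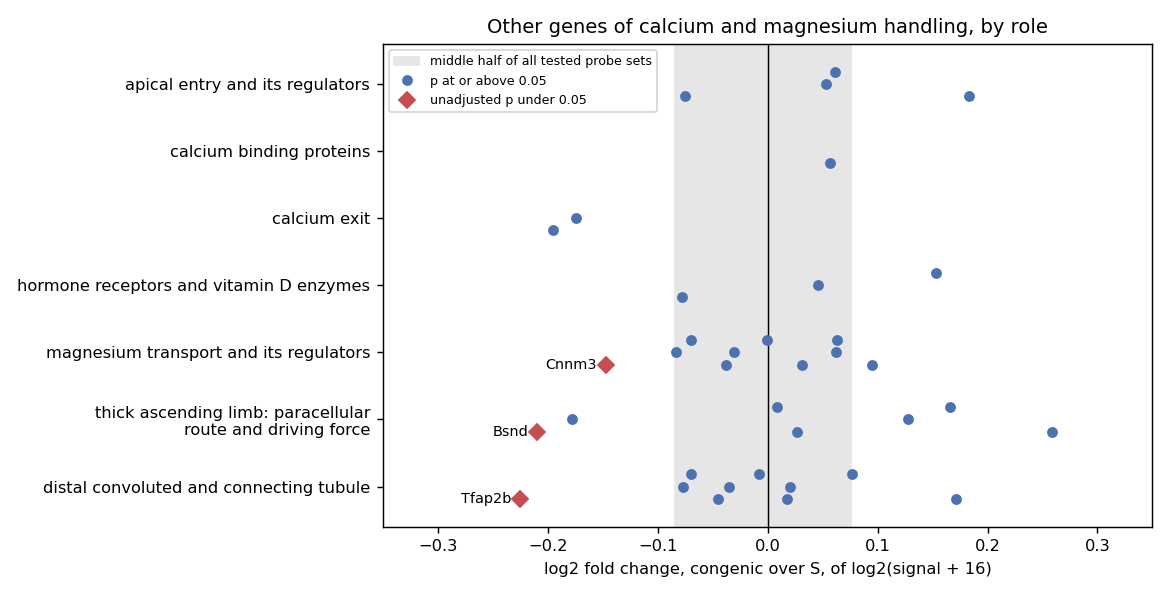
Log2 fold change, congenic over S, of log2(signal + 16) for the 37 tested genes of the calcium and magnesium list, 1 row per role; diamonds mark an unadjusted p under 0.05 and the grey band spans the middle 50% of all tested probe sets. The values run from -0.22 to 0.26, and the 3 diamonds, Cnnm3, Bsnd and Tfap2b, lie to the left.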

How the data were processed

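Kidney RNA pools of 3 S and 3 congenic samples were hybridised to 1 array each. The authors deposited MAS5 signal intensities, by the submitters' processing notes, and the values are linear (trimmed mean 150 on every array). MAS5 subtracts mismatch signal and scales each array, which makes dim values unsteady. Detection calls were not used here. Of 31099 probe sets, 57 controls were left out. Of the remaining 31042, the platform annotation gave 1 symbol to 20826, several to 436 and none to 9780, and 20758 were matched to RefSeq on GRCr8.

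From the deposited intensities, log2(signal + 16) was computed and fitted with limma 3.58.1 (lmFit, eBayes with trend; R 4.3.3), 2-sided, congenic minus S. Probe sets under the 40th percentile of the mean log2 value (a signal of about 25.0) were left out, which removed 12417 and left 18625 for Benjamini-Hochberg adjustment at 0.05. The scale of that mean was settled after a first fit had filtered on mean linear signal, and the latter was then run as an alternative. The median standard error was 0.106, and 3 arrays a strain limit the precision. The code was tested on simulated data.

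Every member probe set is named. From the 54-gene list the rule named genes at an unadjusted p under 0.05 and otherwise the 2 smallest p in each role group, by the brightest probe set. Other genes of that list were named with their values known. The members and lists were chosen with earlier results of these data known. Correlations over the 6 arrays used exact permutation. Alternatives covered scaling, pseudocount, filter, variance model, array weights, the replicate number as a block and arrays left out.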

Additional observations from a re-analysis of the deposited data

How the results depend on the processing

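The named log2 fold changes (9 member probe sets and Tfap2b, Bsnd and Cnnm3) were recomputed under 17 alternatives, of which leaving out congenic replicates 1 and 3 together and filtering on mean linear signal were chosen after seeing the data. Of 201 such values, 189 kept their direction, 12 reversed, all of members, and 0 passed the adjusted threshold, the smallest adjusted p of a member being 0.455. Egf was -0.014 after quantile normalization. Atp2b1 1386426_at was -0.016 with array weights and -0.048 without congenic replicates 1 and 3. The filter on mean linear signal left 0 adjusted calls, 1232 unadjusted calls and 0 members, as before, and 2334 probe sets without overlap.

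Among members, the unadjusted count was 1 with array weights (Trpv5) and 1 with the replicate number as a block (Casr, unadjusted p = 0.0419, adjusted p = 0.694). Correlations of deviations between same-numbered arrays were 0.0426, 0.0224 and 0.0165. Differently numbered arrays had -0.0518 to 0.0363, and S replicate 3 correlated best with congenic replicate 2 (0.0363). Values this small do not settle whether the replicate numbers pair the arrays. The block changed no adjusted call. The pathway list had 1 unadjusted call in the fit without a variance trend, beside 1221 over all tested probe sets. Without a filter, 3548 probe sets had no overlap between strains. Without congenic replicates 1 and 3 there were 786 unadjusted calls and 9201 probe sets without overlap, with 4 members and 17 pathway genes among them, where a lone congenic array overlaps less by construction and is assumed to vary like the other arrays.

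Leaving out 1 array at a time gave 0 to 3 adjusted calls over all probe sets (3 without S replicate 3), 911 to 1737 unadjusted calls and 3854 to 5096 probe sets without overlap. For members these ranges were 0 to 0, 0 to 1 and 0 to 3, and for the pathway list 0 to 0, 0 to 3 and 4 to 11, with medians of -0.0061 to 0.033. The log2 fold change ranged from -0.31 to 0.044 for Calb1, -0.18 to 0.054 for Slc8a1, -0.12 to 0.069 for S100g, -0.036 to 0.10 for Egf, and for Atp2b1 -0.042 to 0.029 (1386426_at), -0.094 to -0.020 (1370050_at) and -0.18 to -0.018 (1397224_at). The causes were not tested. At a filter at the 60th percentile, S100g, Trpv5 and Atp2b1 1397224_at were not tested. Signals near background limit the dim probe sets of Trpv5, Slc8a1 and Pvalb.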
